A study of Mus musculus with 14 samples.

Results

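Described here are 10 genes that report on the unfolded protein response and the integrated stress response in mouse kidney: Atf4, Ddit3, Trib3, Chac1, Asns, Xbp1, Hspa5, Herpud1, Dnajb9 and Sdf2l1. They were chosen by gene symbol, with earlier results of these data known. They are 10 of 24411 genes counted, and all 10 were among the 14300 genes that passed the filter on low counts. The study sequenced RNA of whole kidneys from male C57/B6 mice aged 8 weeks at day 0, day 1 and day 3 of acute kidney injury. Per the methods of the study, the injury was renal ischemia/reperfusion injury (IRI), in which the blood supply of the kidney is stopped and then restored. Day 0 had 4 libraries, which their names call controls, and day 1 and day 3 had 5 libraries each. Whether day 0 mice had a sham operation is not given in the sources used here, and the labels name no transgene, deletion or drug in any group. The labels also do not say that each library came from a separate mouse, so p-values measure the spread between these libraries, which may be technical.

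Proteins that enter the endoplasmic reticulum (ER) must fold there, and the unfolded protein response is the signal that the ER sends to the nucleus when folding falls behind. It has 3 sensors. IRE1 (gene Ern1) splices the mRNA of the transcription factor XBP1, ATF6 is itself cut to release a transcription factor, and PERK (gene Eif2ak3) phosphorylates the translation factor eIF2 alpha. Kinases that sense lack of amino acids, lack of heme or double-stranded RNA phosphorylate the same factor, and the shared output, known as the integrated stress response, is a fall in general translation with raised translation of ATF4. In the kidney, ischemia and reperfusion are textbook settings for both responses, above all in tubular epithelium. Counts per gene hold neither Xbp1 splicing nor eIF2 alpha phosphorylation nor ATF4 translation, so the values below are mRNA levels only.

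Some of the members carry control elements known from textbooks, and those promoters are shown here because the members with such elements did not move alike in the comparisons. RefSeq promoter windows (mouse build GRCm38.p6, 250 bases before to 50 bases after a transcription start) were found for all 10 members and searched on both strands. The ER stress response element ERSE, which is CCAAT and CCACG with 9 bases of any kind between them and is bound by ATF6 and XBP1, was present in 1 member, Hspa5, and in 0.119% of 32851 mouse windows. Its variant ERSE-II, which is ATTGG and CCACG with 1 base between them, was present in 1 member, Herpud1, and in 0.0365% of windows. The core of the composite element for ATF4 with a C/EBP partner, TGATGNAA, was present in 4 members (Chac1, Trib3, Asns and Herpud1) and in 3.97% of windows. The XBP1 element core TGACGTG was present in 1 member, Hspa5, and in 2.01% of windows. The windows of Atf4, Ddit3, Xbp1, Dnajb9 and Sdf2l1 held none of these elements, which says only that the letters are not in these windows. The elements were picked as known ones of such genes, so the shares of all windows are given for scale, and enrichment was not tested. In the lines that follow, each sequence runs 5′ to 3′ on the strand of its gene, and the capitals mark the element. The Herpud1 and Chac1 lines end before the gene as GENCODE draws it, the Hspa5 and Asns lines lie within the gene as GENCODE draws it, and the Trib3 line crosses its start.
Hspa5, chr2:34772020-34772049, plus strand, ERSE at -65 from the RefSeq start: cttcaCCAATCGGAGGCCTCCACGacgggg
Herpud1, chr8:94386229-94386428, plus strand, ERSE-II at -52 and the ATF4 core, reversed, at -112: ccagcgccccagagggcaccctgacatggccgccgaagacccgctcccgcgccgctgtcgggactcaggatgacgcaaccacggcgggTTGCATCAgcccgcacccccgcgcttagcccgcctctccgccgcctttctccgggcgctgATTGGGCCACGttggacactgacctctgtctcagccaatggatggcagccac
Chac1, chr2:119351042-119351228, plus strand, ATF4 core, reversed, at -193: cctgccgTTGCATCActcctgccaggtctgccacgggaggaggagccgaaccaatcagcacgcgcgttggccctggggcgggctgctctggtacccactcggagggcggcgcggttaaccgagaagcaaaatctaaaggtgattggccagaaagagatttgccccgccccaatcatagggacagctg
Asns, chr6:7693214-7693243, minus strand, ATF4 core at -23: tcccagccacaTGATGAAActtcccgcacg
Trib3, chr2:152344028-152344057, minus strand, ATF4 core, reversed, at 14 after the RefSeq start: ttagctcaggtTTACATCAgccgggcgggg

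Each library held 12485579 to 20476979 reads on genes, and levels are given as CPM, the count of a gene scaled by the TMM-adjusted size of its library. The nephron markers Lrp2 (proximal tubule, 206 to 3436 CPM) and Umod (thick ascending limb, 1865 to 6567 CPM) were present in every library. The number in a library's name has 1 digit in all of day 0, in day 1 replicates 3 to 5 and in day 3 replicates 4 and 5, and it has 3 digits in day 1 replicates 1 and 2 and in day 3 replicates 1 to 3. What this number format stands for is not given in the sources used here. On day 1 the libraries separated by it, since replicates 1 and 2 were closer to each other (chi-square per degree of freedom over genes 41.8) than to any 1-digit library (137 or more). By the same distance day 3 libraries did not separate by it, since replicate 1, with 3 digits, was closest to replicate 4, with 1 digit (50.9). Single genes did differ by format on day 3, where 18.5% of all genes tested were called. On day 1 the summed level of 13 proximal tubule markers was 51757 to 67019 CPM in 1-digit and 24373 to 37921 CPM in 3-digit libraries, against 60489 to 62102 CPM on day 0. A large part of this sum is 1 gene, Kap (26730 to 32610 CPM in 1-digit libraries of day 1), and not every marker stayed at its day 0 level in those libraries. Lrp2 was at 651 to 1344 CPM there against 3086 to 3436 CPM on day 0, and Aqp1 at 507 to 818 CPM against 1348 to 1607 CPM. The summed tubular injury markers were 9048 to 17041 CPM in 1-digit and 31723 to 36761 CPM in 3-digit libraries of day 1, against 1214 to 1566 CPM on day 0. Most of the injury sum is Spp1, at 6344 to 12070 CPM in 1-digit and 24400 and 29960 CPM in 3-digit libraries of day 1. Kap, Aqp1 and Spp1 were picked from their lists after their values were seen. The members and the counts over gene lists are therefore given over all libraries and within each format. Leaving out a 3-digit library of day 1 or a 1-digit library of day 3 leaves 1 library in that group. Its spread is then taken from the other groups, so a call kept or lost there says little. Since day 0 has no 3-digit library, format and injury cannot be told apart where a 3-digit library is set against day 0. In bulk RNA, fewer cells of a type and less RNA per cell cannot be told apart either.

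At day 1, 8 of the 10 genes differed from day 0 at an adjusted p under 0.05 (edgeR's quasi-likelihood test with Benjamini-Hochberg adjustment), 7 of them higher and 1 lower. Of all genes tested, 42.1% differed in that comparison, 23.3% higher and 18.7% lower. Since the members were chosen with earlier results known, setting them against all genes is no test of the set. The genes of the ATF4 branch, Atf4, Ddit3, Trib3, Chac1 and Asns, rose by 3.33-fold to 13.0-fold. The genes of the IRE1 branch, of ER folding and of ER-associated degradation were divided. Dnajb9 and Xbp1 were higher by under 2-fold, Sdf2l1 was lower, and Hspa5 and Herpud1 had no call. By day 3 only Trib3, Asns and Sdf2l1 still differed from day 0, which is 3 of 10, 2 higher and 1 lower, against 33.3% of all genes tested, 19.5% higher and 13.8% lower.

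**Figure D1:**
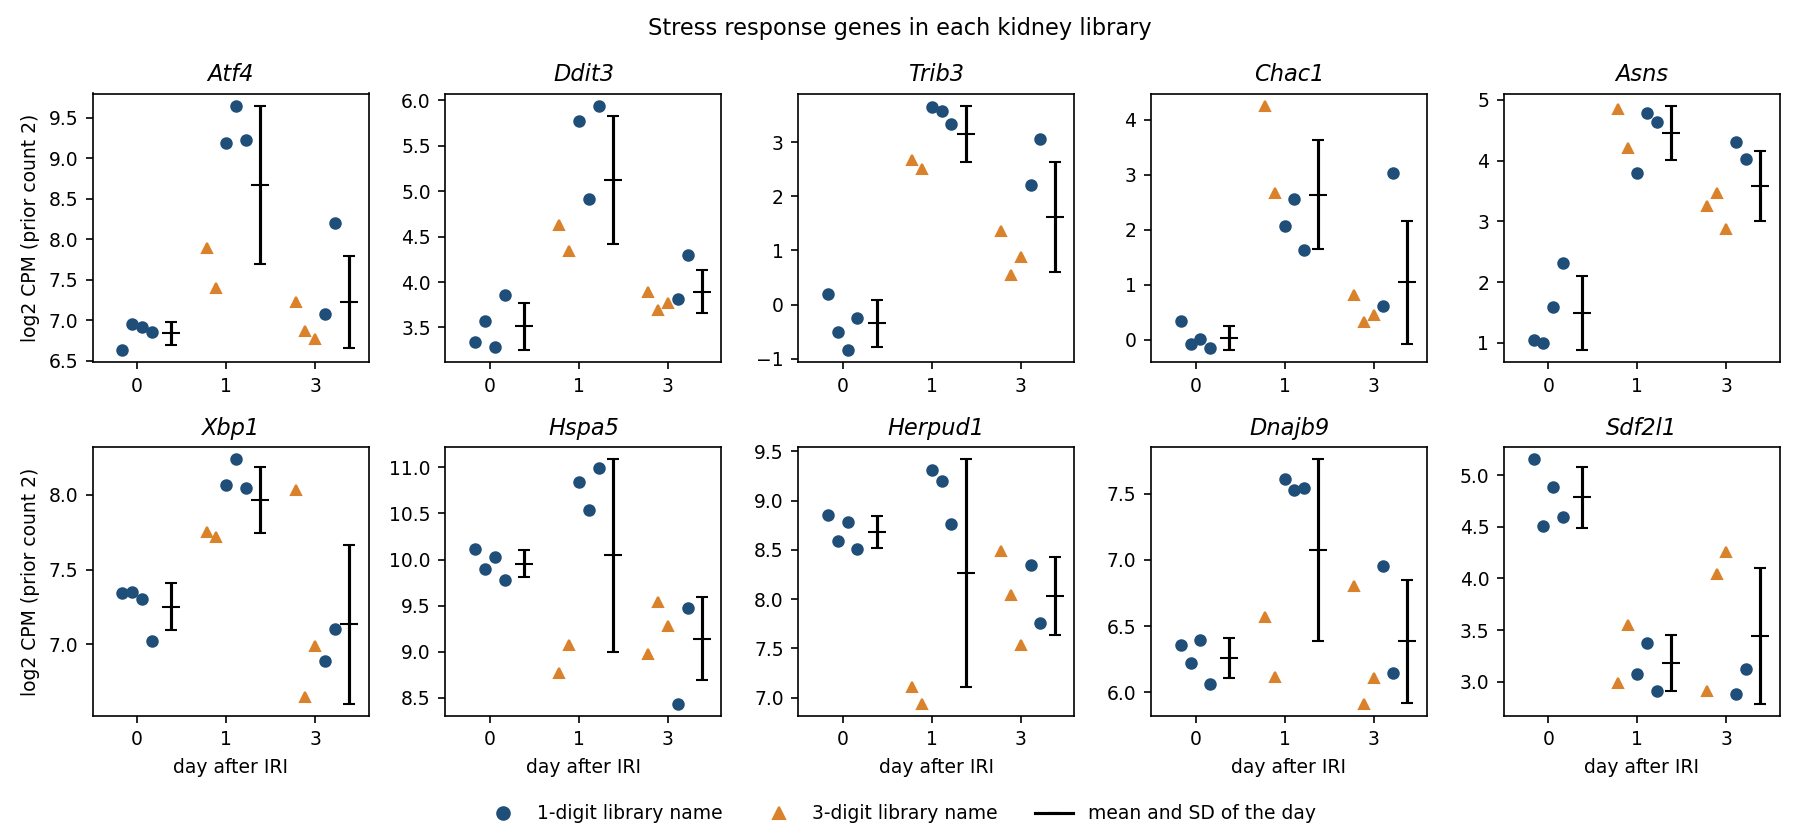
Level of each of the 10 genes in every library, as log2 CPM with a prior count of 2, by day after IRI. Points are single libraries, with circles for 1-digit and triangles for 3-digit names, and bars are the mean and SD of each day. The 5 genes of the ATF4 branch lie higher on day 1 than on day 0 in every library, while Hspa5 and Herpud1 lie above or near day 0 in 1-digit and below it in 3-digit libraries of day 1.

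Atf4 (chr15:80255184-80257541, GRCm38) encodes the transcription factor that carries the integrated stress response. Its level was 98.9, 124, 120.3 and 116 CPM in the 4 libraries of day 0. On day 1 it was 236 and 168 CPM in 3-digit and 584, 802 and 596 CPM in 1-digit libraries, all above every day 0 library. Day 3 levels were 149.8, 116 and 108 CPM in 3-digit and 134 and 293 CPM in 1-digit libraries, and they overlapped day 0. The mean was 115 ± 11.0 CPM on day 0 (SD, n = 4), 477 ± 267 on day 1 and 160.2 ± 75.7 on day 3 (SD, n = 5 each). Atf4 mRNA rose at day 1 by 2.06 on the log2 scale (SE 0.42), or 4.16-fold, with an adjusted p of 0.00200. It fell from day 1 to day 3 by 1.57 (SE 0.39, adjusted p 0.0160) and did not pass the test at day 3 against day 0 (log2 fold change 0.48, adjusted p 0.368). The rise at day 1 was called within both formats, at 2.53 in 1-digit (adjusted p 3.46e-06) and 0.82 in 3-digit libraries (adjusted p 0.0219). The formats themselves differed on day 1, with 3-digit libraries lower by a log2 value of -1.71 (SE 0.30, adjusted p 0.00120). In 1-digit libraries of day 3, Atf4 was higher than day 0 by 0.90 (adjusted p 0.0102). Without day 3 replicate 5, which leaves 1 library of that format, the value was 0.25.

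Ddit3 (chr10:127290829-127293753) encodes CHOP, the transcription factor downstream of ATF4 that is known for driving cell death under lasting ER stress. Day 0 libraries held 10.01, 11.8, 9.60 and 14.3 CPM. Day 1 libraries held 24.7 and 20.2 CPM in the 3-digit and 54.6, 29.9 and 61.3 CPM in the 1-digit format. All 5 were above all of day 0, and the 1-digit libraries were above both 3-digit ones. On day 3 the levels were 14.7, 12.8 and 13.5 CPM in 3-digit and 13.99 and 19.5 CPM in 1-digit libraries, which overlapped day 0 but lay below every day 1 library. The rise at day 1 was 1.74 on the log2 scale (SE 0.31, adjusted p 0.000754), and the difference of day 3 from day 1 was -1.35 (SE 0.28, adjusted p 0.00797). Ddit3 was the sole member whose day 3 and day 1 libraries did not overlap, where 7.61% of all genes tested had such a gap. At day 1, 3-digit libraries were lower than 1-digit ones by a log2 value of -1.11 (SE 0.27, adjusted p 0.00800). That call was lost without day 1 replicate 2, which leaves 1 library of the 3-digit format.

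Trib3 (chr2:152337422-152344032) encodes a pseudokinase that is induced by ATF4 and CHOP. It was almost silent on day 0, at 1.04, 0.588, 0.442 and 0.726 CPM, or 7 to 18 reads per library. On day 1 it reached 6.25 and 5.59 CPM in 3-digit and 12.4, 11.8 and 9.97 CPM in 1-digit libraries. Day 3 levels were 2.44, 1.35 and 1.73 CPM in 3-digit and 4.51 and 8.15 CPM in 1-digit libraries, so that all 10 injured libraries were above all of day 0. Over all libraries Trib3 had the largest log2 fold change of the 10 members at day 1, 3.70 (SE 0.55, adjusted p 0.000227), while within 3-digit libraries that of Chac1 was larger (3.78, against 3.06 for Trib3). It remained higher than day 0 at day 3 by 2.35 (SE 0.53, adjusted p 0.00450). The difference of day 3 from day 1 was -1.35 and fell just short of the call (adjusted p 0.0520, 0.0148 with DESeq2). Within both days the 3-digit libraries were lower, by log2 values of -0.94 on day 1 (adjusted p 0.0422) and -1.77 on day 3 (adjusted p 0.00728). The first of these calls was lost without day 0 replicate 2 or any single one of the day 1 libraries. The second difference was -1.30 without day 3 replicate 5, which leaves 1 library of the 1-digit format.

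Chac1 (chr2:119351229-119354381) encodes an enzyme that breaks down glutathione and is a known ATF4 target, with the composite element shown above. Day 0 levels were 1.15, 0.824, 0.884 and 0.786 CPM. On day 1 the levels were 19.0 and 6.27 CPM in 3-digit and 4.09, 5.77 and 2.98 CPM in 1-digit libraries. This is the reverse of the order in Atf4, Ddit3 and Trib3, since both 3-digit libraries were highest. Day 3 libraries held 1.63, 1.13 and 1.24 CPM in the 3-digit and 1.41 and 8.01 CPM in the 1-digit format, and replicate 5 alone was far above the others. Chac1 rose at day 1 by 3.06 (SE 0.71, adjusted p 0.00393), or 8.32-fold. Without day 1 replicate 1, the library at 19.0 CPM, the log2 fold change was 2.36 and still called. At day 3 it was 1.53 and not called (SE 0.68, adjusted p 0.0964, 0.0470 with DESeq2). On day 1 the 3-digit libraries were higher than the 1-digit ones by 1.55 (SE 0.56, adjusted p 0.0449). Without day 1 replicate 1, which leaves 1 library of the 3-digit format, that value became 0.53. The call was lost without any single library of day 0, day 1 replicate 3, 4 or 5, or day 3 replicate 3 (1.35 to 1.83, adjusted p 0.0519 to 0.129). Day 3 stood at -1.52 against day 1 (adjusted p 0.0951), and at -2.51 (adjusted p 0.00364) without day 3 replicate 5. Within 1-digit libraries the mean was 4.28 CPM on day 1 and 4.71 CPM on day 3, the latter from 1.41 and 8.01 CPM. Within 3-digit libraries the mean was 12.6 CPM on day 1 and 1.33 CPM on day 3.

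Asns (chr6:7675169-7693254) encodes asparagine synthetase, a classical amino acid response gene under ATF4. Day 0 libraries held 1.96, 1.88, 2.91 and 4.84 CPM. Day 1 libraries held 28.7 and 18.4 CPM in the 3-digit and 13.7, 27.5 and 24.7 CPM in the 1-digit format. The formats overlapped, and each of the 5 libraries was above all of day 0. On day 3 Asns was at 9.37, 11.0 and 7.23 CPM in 3-digit and 19.6 and 16.1 CPM in 1-digit libraries, again all above day 0. The log2 fold change was 2.96 at day 1 (SE 0.38, adjusted p 7.49e-05) and 2.12 at day 3 (SE 0.37, adjusted p 0.000889). Asns was the member of the ATF4 branch with the least difference between formats on day 1, at 0.10 (adjusted p 0.858). On day 3 the 3-digit libraries were below both 1-digit ones, at a log2 value of -0.96 that was not called (adjusted p 0.0841).

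**Figure D2:**
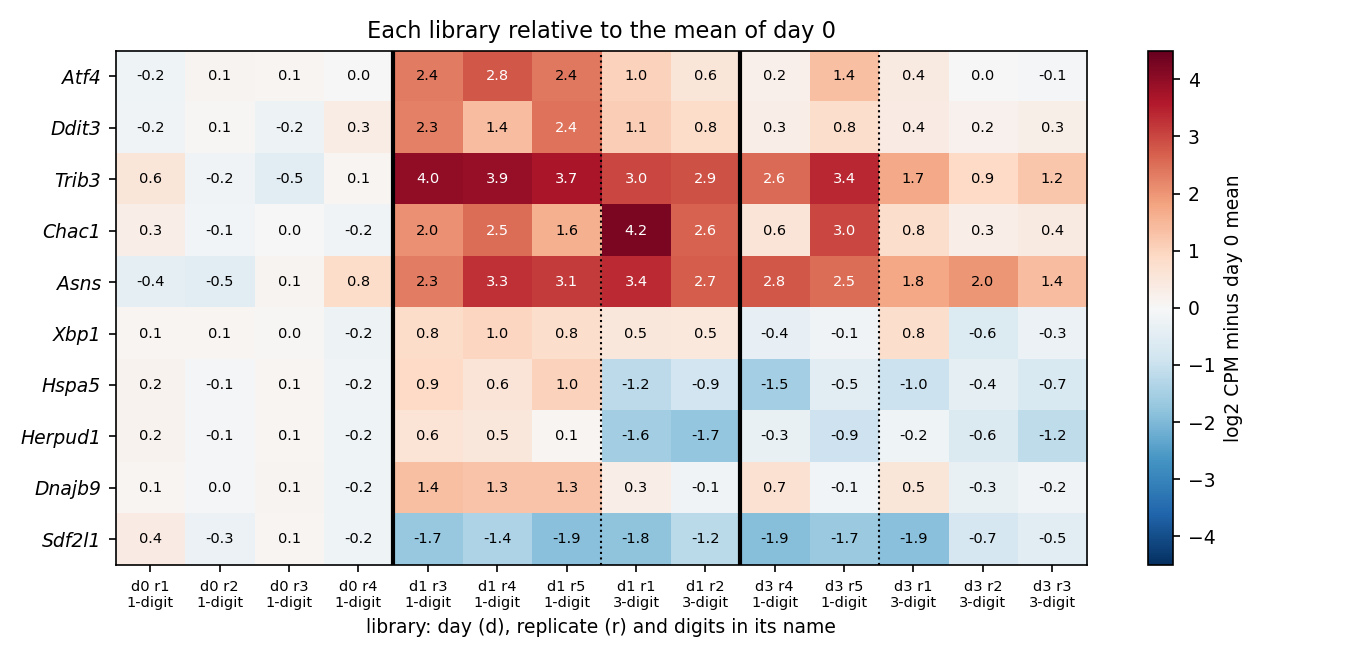
Log2 CPM of each gene in each library minus its mean over day 0, with genes in rows, libraries in columns ordered by day and number format, and colour for the difference. Trib3, Chac1 and Asns are raised in all day 1 libraries, and Hspa5 and Herpud1 switch sign between the formats of day 1.

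Xbp1 (chr11:5520659-5525893) encodes the transcription factor of the IRE1 branch, which induces genes of ER expansion and degradation. On day 0 it was at 162, 163, 157 and 129.8 CPM. Day 1 libraries were at 216 and 210.2 CPM in the 3-digit and 268, 302 and 264 CPM in the 1-digit format, each above all of day 0. Day 3 libraries were at 262, 100.4 and 127 CPM in the 3-digit and 119 and 138 CPM in the 1-digit format, and replicate 1 alone lay in the range of day 1. Total Xbp1 mRNA was higher at day 1 by 0.72 (SE 0.24, adjusted p 0.0251), or 1.65-fold. This call was lost without day 0 replicate 3 (adjusted p 0.0522), day 0 replicate 4 (0.0729) or day 1 replicate 4 (0.0583), and within 3-digit libraries the difference was 0.48 (adjusted p 0.178). From day 1 to day 3 Xbp1 fell by 0.76 (SE 0.22, adjusted p 0.0335). That call was lost when any of 6 single libraries was left out, day 1 replicates 3 to 5 and day 3 replicates 2 to 4 (adjusted p 0.0607 to 0.0842). Day 3 stood at -0.04 against day 0 (adjusted p 0.911).

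Hspa5 (chr2:34771970-34777547) encodes BiP, the main chaperone of the ER lumen and the usual marker of the unfolded protein response. Its day 0 levels were 1107, 953, 1046 and 879.6 CPM, the highest of the members. On day 1 it stood at 436 and 540.2 CPM in 3-digit libraries and at 1832, 1491 and 2040.0 CPM in 1-digit libraries. All of day 0 lay in the gap between the formats. Over all day 1 libraries the log2 fold change was 0.35 (SE 0.39, adjusted p 0.494), from a mean of 1268 ± 739 CPM (SD, n = 5) against 996 ± 100.4 CPM on day 0 (SD, n = 4). Within formats it had opposite signs, 0.84 in 1-digit (SE 0.22, adjusted p 0.00534) and -1.03 in 3-digit libraries (SE 0.27, adjusted p 0.00779). The formats differed on day 1 by -1.87 (SE 0.29, adjusted p 0.000626). Day 3 levels were 503, 743 and 620.2 CPM in 3-digit and 347 and 712 CPM in 1-digit libraries. All 5 were below all of day 0, with a log2 fold change of -0.77 that was not called over all libraries (adjusted p 0.142). It was called within the 1-digit format (-0.91, adjusted p 0.0106) and within the 3-digit format (-0.68, adjusted p 0.0350), where each is set against all of day 0. Without day 3 replicate 4, which leaves 1 library of the 1-digit format, the first of these was -0.48.

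Herpud1 (chr8:94386438-94395377) encodes a membrane protein of ER-associated degradation and carries both the ERSE-II and the ATF4 core in the promoter shown above. The gene has an antisense partner, Gm15890, in GENCODE, and the counts used here keep the strand. Day 0 levels were 463, 386, 442 and 364 CPM. On day 1 they were 138 and 123 CPM in 3-digit libraries, below all of day 0, and 636, 589.7 and 434 CPM in 1-digit libraries, within or above day 0. Herpud1 had the largest difference between formats of the members on day 1, -2.09 (SE 0.28, adjusted p 0.000335). Over all libraries its log2 fold change at day 1 was -0.11 (SE 0.42, adjusted p 0.852). In 1-digit libraries it was 0.42 and not called (adjusted p 0.108), and in 3-digit libraries it was -1.67 (SE 0.27, adjusted p 0.000395). Day 3 levels were 359, 263 and 185 CPM in 3-digit and 326 and 217 CPM in 1-digit libraries, all below day 0 (log2 fold change -0.62, adjusted p 0.263). Within the 3-digit format that difference was -0.62 and called (adjusted p 0.0448).

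Dnajb9 (chr12:44205559-44210326) encodes ERdj4, a co-chaperone of BiP and a known target of XBP1. It was at 81.9, 74.6, 84.2 and 66.8 CPM on day 0. Day 1 libraries were at 95.1 and 69.3 CPM in the 3-digit and at 195, 184 and 186 CPM in the 1-digit format. The 1-digit libraries sat close together at more than 2-fold of day 0, at 189 ± 5.93 CPM (SD, n = 3), while one 3-digit library lay within day 0. Over all libraries Dnajb9 was higher at day 1 by 0.93 (SE 0.30, adjusted p 0.0247). The call was lost without day 0 replicate 2 or 4 or day 1 replicate 3, 4 or 5 (adjusted p 0.0551 to 0.0663). It was 1.30 within 1-digit (adjusted p 0.000264) and 0.10 within 3-digit libraries (adjusted p 0.780). The formats differed by -1.20 (adjusted p 0.00533), a call lost without day 1 replicate 2, which leaves 1 library of the 3-digit format. Day 3 libraries, at 112, 60.3 and 68.8 CPM in 3-digit and 124 and 70.7 CPM in 1-digit names, overlapped day 0 (log2 fold change 0.18, adjusted p 0.662).

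Sdf2l1 (chr16:17130138-17132383) encodes a partner of the BiP chaperone complex and is also induced by ER stress in many cells. Here it moved the other way. Day 0 libraries held 35.4, 22.6, 29.4 and 24.0 CPM. All day 1 libraries were lower, at 7.81 and 11.6 CPM in 3-digit and 8.31, 10.3 and 7.40 CPM in 1-digit names. The day 3 libraries were lower than day 0 too, at 7.43, 16.3 and 19.0 CPM in 3-digit and 7.26 and 8.59 CPM in 1-digit names. Sdf2l1 fell by 1.61 at day 1 (SE 0.29, adjusted p 0.000851) and by 1.24 at day 3 (SE 0.29, adjusted p 0.00532). The fall at day 1 was close in both formats, -1.68 in 1-digit (adjusted p 0.000331) and -1.52 in 3-digit libraries (adjusted p 0.00322).

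Set side by side, the 10 genes had a median log2 fold change of 1.33 at day 1, where the median of all genes tested was 0.01. Day 1 and day 0 libraries did not overlap for 7 members, 6 above and 1 below, while 42.0% of all genes tested had no overlap, 21.5% above and 20.5% below. At day 3 the median was 0.28, against 0.05 over all genes. For 5 members day 3 did not overlap day 0, with Trib3 and Asns above and Hspa5, Herpud1 and Sdf2l1 below, against 33.4% of all genes, 16.9% above and 16.5% below. The 3 calls at day 3 were therefore a share like that of all genes. From day 1 to day 3 the median was -0.98, against 0.02 over all genes, and 3 members were called (Atf4, Ddit3 and Xbp1, all lower), against 15.9% of all genes, 8.52% higher and 7.39% lower. At an unadjusted p under 0.05, 8 members differed between day 3 and day 1, against 32.0% of all genes tested. The number of adjusted calls rose to 6 when day 1 replicate 1, day 1 replicate 2 or day 3 replicate 5 was left out, and to 8 with DESeq2. The comparisons with day 0 share the same control libraries, and both share the day 1 or day 3 libraries with this one. Within formats, Atf4 was lower at day 3 than at day 1 in both (-1.65 in 1-digit, adjusted p 0.00214, and -0.70 in 3-digit libraries, adjusted p 0.0329). Xbp1 was lower in 1-digit libraries (-1.13, adjusted p 0.000423) and at -0.39 in 3-digit libraries (adjusted p 0.454). Herpud1, at -0.51 over all libraries (adjusted p 0.395), was lower in 1-digit libraries (-1.04, adjusted p 0.00548) and higher in 3-digit libraries (1.04, adjusted p 0.0222).

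**Figure D3:**
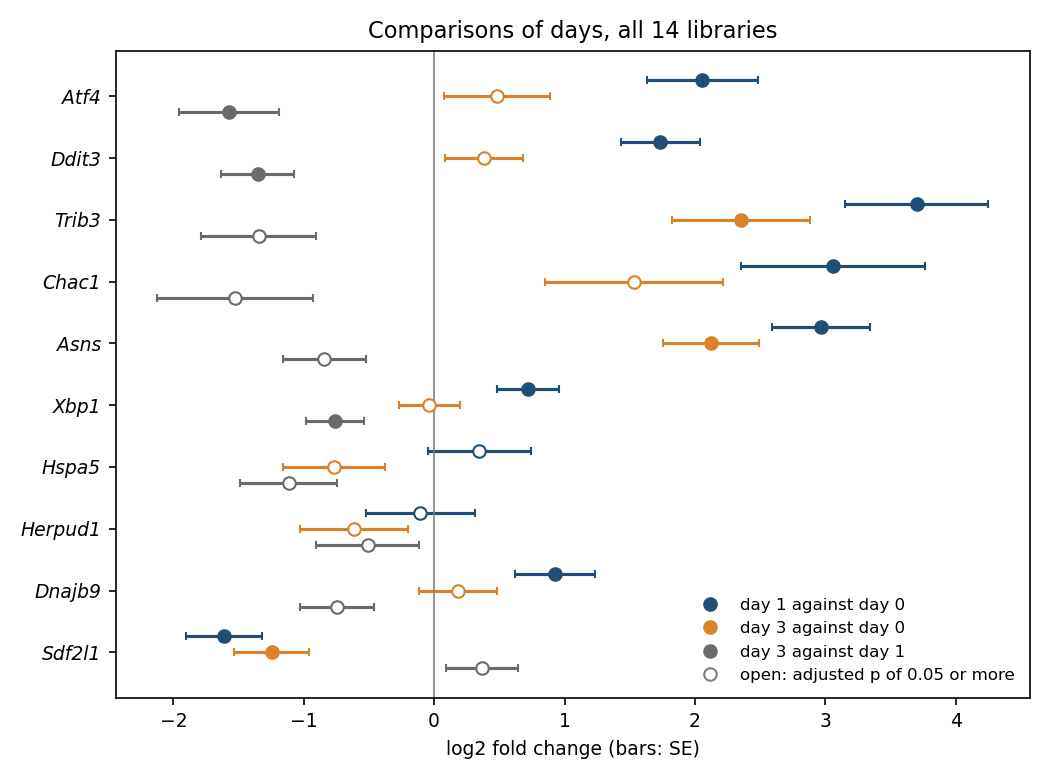
Log2 fold change of each gene with its standard error at day 1 against day 0, day 3 against day 0 and day 3 against day 1, over all libraries. Filled points passed an adjusted p of 0.05. The 5 genes of the ATF4 branch lie between 1.74 and 3.70 at day 1, and Sdf2l1 is below 0 at both days.

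Within the 1-digit format, 9 of 10 members were called at day 1 against day 0, 8 higher and 1 lower, where 58.5% of all genes tested were called, 28.9% higher and 29.6% lower. Within the 3-digit format, 8 of 10 were called, 5 higher and 3 lower, against 41.6% of all genes, 22.6% higher and 19.0% lower. The 3 lower ones were Hspa5, Herpud1 and Sdf2l1. At day 3 against day 0 the 1-digit libraries gave 6 calls (Atf4, Trib3, Chac1 and Asns higher, Hspa5 and Sdf2l1 lower) against 53.7% of all genes, 28.6% higher and 25.1% lower. The 3-digit libraries gave 5 calls (Trib3 and Asns higher, Hspa5, Herpud1 and Sdf2l1 lower) against 32.4% of all genes, 19.1% higher and 13.3% lower. Chac1 in 1-digit libraries of day 3 was higher by 2.35 (adjusted p 0.00386), but only by 0.65 without day 3 replicate 5, which leaves 1 library of that format.

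The direct comparison of 3-digit with 1-digit libraries on day 1 called 7 of the 10 members, 6 lower (Atf4, Ddit3, Trib3, Hspa5, Herpud1 and Dnajb9) and 1 higher (Chac1), where 35.0% of all genes tested were called, 18.6% higher and 16.4% lower. Libraries of the formats did not overlap on day 1 for 8 members, against 60.7% of all genes. Some of these calls were lost without day 1 replicate 2, which leaves 1 library of the 3-digit format. On day 3 the comparison called 1 member, Trib3, which was lower, against 18.5% of all genes, 10.3% higher and 8.22% lower. This count was not stable with single libraries left out, and it was 4 without day 3 replicate 1. The call of Trib3 was lost without day 3 replicate 5, which leaves 1 library of the 1-digit format. For 2 members the formats of day 3 did not overlap, against 41.4% of all genes. The format difference was not the same on both days for Hspa5, Herpud1 and Chac1. It moved from day 1 to day 3 by 2.11 in Hspa5 (SE 0.39, adjusted p 0.00376), by 2.07 in Herpud1 (SE 0.38, adjusted p 0.00348) and by -3.36 in Chac1 (SE 0.82, adjusted p 0.0141). These are 3 of 10 members, against 17.6% of all genes tested, 9.10% with a positive and 8.45% with a negative change. The Chac1 value shrank to -2.33 without day 1 replicate 1 and to -1.65 without day 3 replicate 5, each of which leaves 1 library in a group.

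Single genes of the tubular injury list went both ways with the format. Havcr1, which encodes KIM-1, was at 1860 and 3014 CPM in 3-digit libraries of day 1 and at 30.5, 151 and 45.8 CPM in 1-digit libraries, against 89.9 to 119 CPM on day 0. Of the 1-digit libraries, replicates 3 and 5 were thus below every day 0 library for this injury marker, although their injury sum was above that of day 0. Cldn4, for a tight junction protein, was lower in the 3-digit format, at 203 and 191 CPM against 743, 709 and 868 CPM. Krt8, Krt20 and Sox9 overlapped between the formats. These genes were chosen after their values were seen. On day 3 the summed proliferation markers were 339 to 593 CPM in 3-digit and 23.1 to 61.5 CPM in 1-digit libraries, against 12.2 to 37.8 CPM on day 0. The part of these shifts in the stress genes was not tested.

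**Figure D4:**
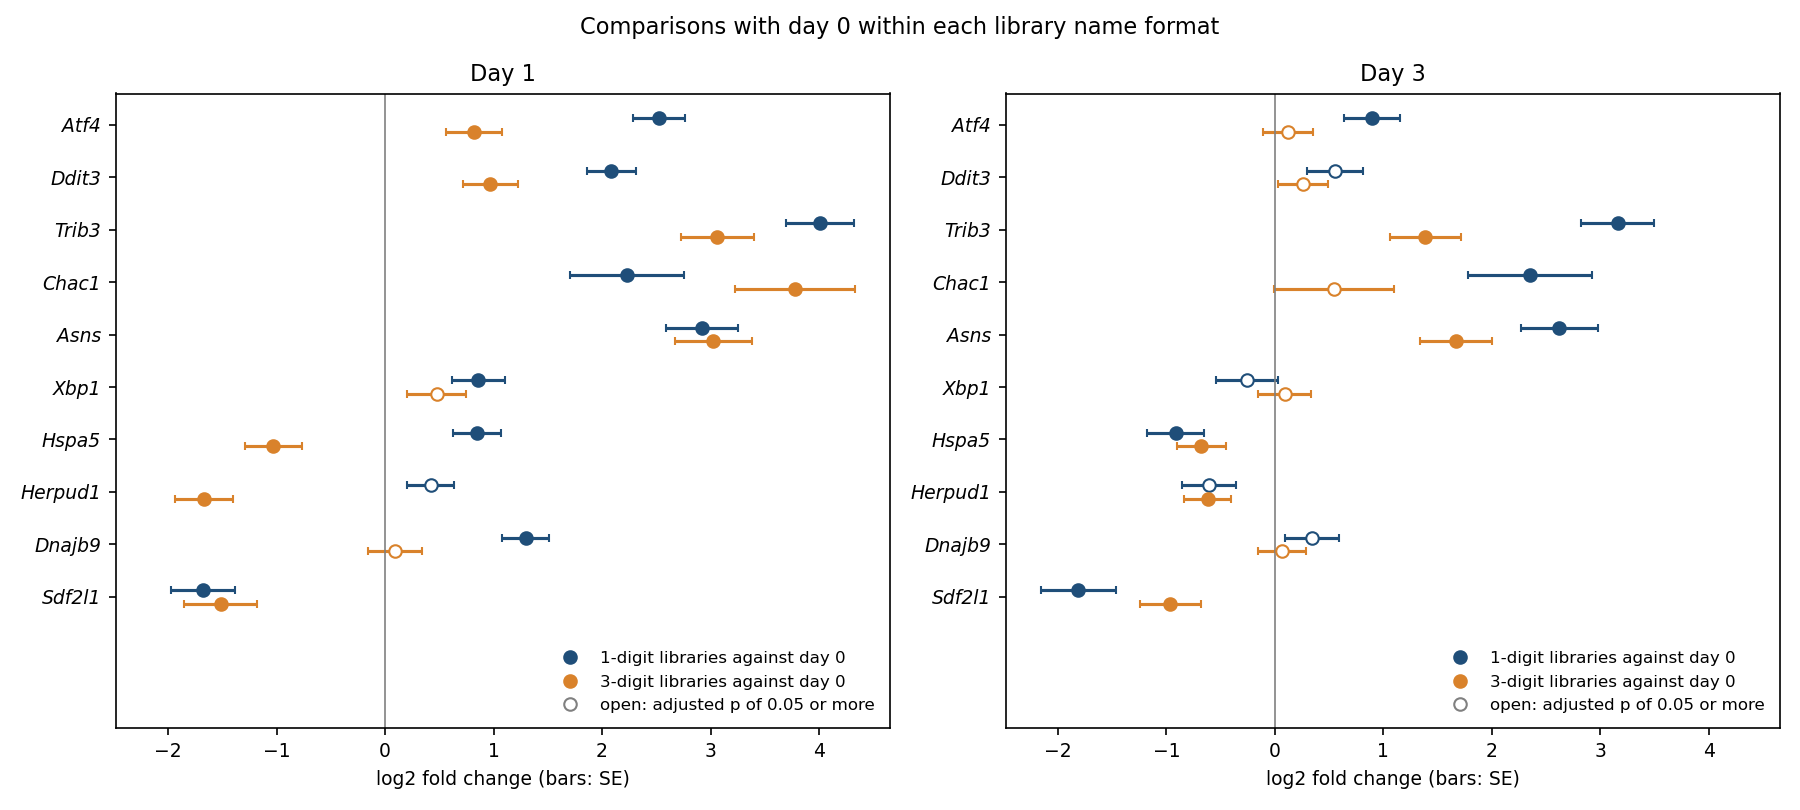
Log2 fold change against day 0 of each gene within 1-digit and within 3-digit libraries, for day 1 and day 3, with standard errors. On day 1 Asns and Sdf2l1 nearly coincide between formats, while Hspa5 stands at 0.84 and -1.03.

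Of 53 tested genes of the integrated stress response and of the stress sensors, members aside, 24 rose and 5 fell at day 1 (median log2 fold change 0.42), and 13 rose and 5 fell at day 3 (median 0.19). This group also holds Ern1, Atf6 and Atf6b, which belong to the arms of the unfolded protein response that do not act through eIF2 alpha, and Ern1 is among the 5 that fell at day 1. Of 46 tested genes of ER folding, degradation and transport, 5 rose and 11 fell at day 1 (median -0.15), and 1 rose and 20 fell at day 3 (median -0.31). Within the 1-digit format the counts at day 1 were 27 higher and 10 lower for the first group and 8 higher and 11 lower for the second, and within the 3-digit format they were 29 and 5, and 5 and 22. Against the shares of all genes given above, the 11 of 46 lower at day 1 were near the 18.7% of all genes, and within 1-digit libraries near the 29.6%. The 13 of 53 higher at day 3 were near the 19.5% of all genes. The counts of single lists, given next, stand against 23.3% of all genes higher and 18.7% lower at day 1 over all libraries, and 19.5% higher and 13.8% lower at day 3. The lists too were chosen with earlier results of these data known, so these contrasts are no test of them.

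Among regulators under ATF4 and CHOP, 7 of 13 tested genes rose and 1 fell at day 1 (7 and 3 within 1-digit, 5 and 1 within 3-digit libraries). Atf3, a transcription factor induced early in kidney injury, rose from 1.93 ± 0.718 CPM (SD, n = 4) to 263 ± 259.6 CPM (SD, n = 5). Its log2 fold change was 7.08 (SE 1.11, adjusted p 0.000326), and day 1 means were 422 CPM in 1-digit and 24.1 CPM in 3-digit libraries. Gdf15, a stress cytokine, rose by 3.85 at day 1 and 2.74 at day 3. Eif4ebp1, which encodes the translation repressor 4E-BP1, rose by 2.87 and 2.78. At day 3 both were lower in 3-digit than in 1-digit libraries, Gdf15 having risen by 2.20 and 3.29 (difference -1.09, adjusted p 0.0391) and Eif4ebp1 by 2.23 and 3.35 (difference -1.12, adjusted p 0.0305). The difference of Gdf15 was -0.16 without day 3 replicate 5, which leaves 1 library of the 1-digit format. It was also not called without day 0 replicate 1, 2 or 3, day 1 replicate 5, or day 3 replicate 1 or 2 (adjusted p 0.0517 to 0.0938). Eif4ebp1 stood at 81.7 ± 1.11 CPM in 1-digit and 37.6 ± 18.4 CPM in 3-digit libraries of day 3 (SD, n = 2 and 3). Its difference was not called without day 3 replicate 2, 3, 4 or 5. Leaving out replicate 4 or 5 again leaves 1 library of the 1-digit format. Ppp1r15a encodes GADD34, the subunit that leads a phosphatase back to eIF2 alpha. It rose by 3.33 at day 1 (SE 0.74, adjusted p 0.00320) and stood at 0.98 at day 3 (adjusted p 0.278). Like Atf4, it was lower in 3-digit than in 1-digit libraries of day 1 (-2.70, adjusted p 0.000461), and the same held on day 3 (-1.99, adjusted p 0.00544). Against day 0, Ppp1r15a at day 3 had risen by 1.84 in 1-digit libraries (adjusted p 0.000495) and was at -0.15 in 3-digit libraries (adjusted p 0.730). The 1-digit libraries of day 3 were far apart, at 30.3 and 93.1 CPM. Without replicate 5, the higher one, 1 library of that format is left. The rise was then 0.84 and the format difference of day 3 was -0.99. The eIF2 alpha gene itself, Eif2s1, rose by 0.37 at day 1 (adjusted p 0.0354), and within formats by 0.56 in 3-digit libraries (adjusted p 0.00649), with 0.24 in 1-digit libraries (adjusted p 0.120). The call over all libraries was lost without any single library of day 0, day 1 replicate 1, 2 or 5, or day 3 replicate 3 (adjusted p 0.0530 to 0.0865).

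Amino acid transporters rose in 6 of 7 tested genes at day 1 (median 1.51) and in 5 of 7 at day 3 (median 0.87), and none fell. The counts were the same within each format. Slc7a5, the large neutral amino acid carrier, rose by 2.64 and 2.20, Slc38a2 by 1.90 and 0.87, and the cationic carrier Slc7a1 by 1.51 and 0.91. Of 11 genes of amino acid synthesis and one-carbon metabolism, 3 rose and 2 fell at each day over all libraries, shares near those of all genes. At day 1 this was 3 and 1 within 1-digit and 7 and 2 within 3-digit libraries, and at day 3 it was 2 and 3, and 6 and 1. The 7 of 11 higher in 3-digit libraries of day 1 stand against 22.6% of all genes, and the 3 higher in 1-digit libraries are near the 28.9%. Psat1, a step of serine synthesis, rose by 2.02 and 2.04. At day 1 it had risen by 1.34 in 1-digit and by 2.66 in 3-digit libraries, a called difference (1.32, adjusted p 0.0355). That call was lost without day 1 replicate 1, 2, 3 or 5, and without replicate 1 or 2 a single 3-digit library is left. The mitochondrial folate gene Mthfd1l rose by 2.46 and 2.24. Shmt2, which also serves mitochondrial one-carbon metabolism, fell by 0.82 at day 1 and by 0.99 at day 3, with -0.57 in 1-digit libraries of day 1 (adjusted p 0.0583). It was named after its values were seen. Aminoacyl-tRNA synthetases rose in 6 of 12 genes at day 1, among them Gars (0.92) and Sars (0.78). Over all libraries none had risen at day 3 and Yars had fallen (-0.55, adjusted p 0.0113). Within 1-digit libraries 6 rose and 3 fell at day 1, and 2 rose and 2 fell at day 3. Within 3-digit libraries 8 rose and none fell at day 1, and 1 rose and 1 fell at day 3.

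Of the sensors and kinases, 2 of 7 fell at day 1 over all libraries and none rose, while 3 rose and 3 fell within 1-digit and 1 rose and 2 fell within 3-digit libraries. With 7 genes, the shares of all genes that were lower at day 1 (18.7% over all libraries, 29.6% in 1-digit and 19.0% in 3-digit libraries) come within about 1 gene of these counts, and so does the 28.9% higher in 1-digit libraries. Ern1 fell from 16.3 ± 1.12 to 9.43 ± 0.960 CPM (SD, n = 4 and 5), a log2 fold change of -0.79 (adjusted p 0.00444). The heme-regulated kinase gene Eif2ak1 fell by 0.37 at day 1 and by 0.52 at day 3. Eif2ak3, for PERK, was at 0.23 (adjusted p 0.348) and Atf6 at 0.27 (adjusted p 0.203) at day 1 over all libraries, and neither passed the test at day 3. In 1-digit libraries of day 1 both rose, Eif2ak3 by 0.49 (adjusted p 0.0103) and Atf6 by 0.50 (adjusted p 0.00365), and both were lower in the 3-digit than in the 1-digit format (-0.76, adjusted p 0.00598, and -0.64, adjusted p 0.00613). Without day 1 replicate 2, which leaves 1 library of the 3-digit format, neither format difference was called. Eif2ak4, for the kinase GCN2 that senses lack of amino acids and named after its values were seen, rose by 0.58 in 1-digit libraries of day 1 (adjusted p 0.0117). Atf6b, a relative of ATF6, fell by 1.21 there (adjusted p 0.00168). In 3-digit libraries of day 1 Atf6b was at -0.09 (adjusted p 0.818), and the formats differed by 1.12 (adjusted p 0.0129). Over all libraries it was at -0.65 at day 1 (adjusted p 0.102) and at -0.91 at day 3 (adjusted p 0.0365). Eif2ak2, the kinase that senses double-stranded RNA, rose by 0.74 at day 3 (adjusted p 0.0123) and by 0.63 in 3-digit libraries of day 1 (adjusted p 0.0141). In 1-digit libraries of day 1 it was at -0.04 (adjusted p 0.837), and the formats differed by 0.68 (adjusted p 0.0172). Over all day 1 libraries Eif2ak2 was at 0.27 (adjusted p 0.287).

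No gene of 17 tested ER chaperones and folding enzymes rose at day 1 or day 3 against day 0, while 5 fell at day 1 and 12 at day 3, against 18.7% and 13.8% of all genes. On day 3 the summed proximal tubule markers were at 12924 to 30749 CPM, against 60489 to 62102 CPM on day 0, and the part of this in the falls of chaperones and of Hspa5, Herpud1 and Sdf2l1 was not tested. Within formats none of the 17 rose either, with 5 lower at day 1 and 13 at day 3 in 1-digit libraries, and 12 and 11 in 3-digit libraries. The list leaves out the members. Of these, Hspa5 and Dnajb9 were called higher in 1-digit libraries of day 1. In 3-digit libraries of that day Hspa5 was called lower and Dnajb9 was not called. The 5 of 17 in 1-digit libraries of day 1 are a share like the 29.6% of all genes that were lower there, and the shares of all genes lower in the other comparisons were 25.1% (1-digit, day 3), 19.0% (3-digit, day 1) and 13.3% (3-digit, day 3). Hyou1, a large ER chaperone, fell by 0.87 at day 1 (adjusted p 0.00439) and by 1.15 at day 3 (adjusted p 0.00111). At day 3 its fall was 1.67 in 1-digit and 0.89 in 3-digit libraries (difference 0.78, adjusted p 0.0212). That difference was not called without day 3 replicate 2, 3, 4 or 5, and without replicate 4 or 5 a single 1-digit library is left. Calr, for the lectin chaperone calreticulin, fell by 0.77 (adjusted p 0.0463) and 1.08 (adjusted p 0.0123). The first call was lost without any single library of day 0, day 1 replicate 1, 2, 4 or 5, or day 3 replicate 1 (adjusted p 0.0573 to 0.0925). Hsp90b1, for GRP94, was at -0.48 on day 1 (adjusted p 0.118) and fell by 0.79 at day 3 (adjusted p 0.0207), a call lost without day 0 replicate 1 or 3 (adjusted p 0.0527 and 0.0523). As with Hspa5, its level on day 1 was lower in 3-digit than in 1-digit libraries (log2 value -0.88, adjusted p 0.00364). In all, 9 of the 17 chaperone genes and 9 of 14 degradation genes were lower in the 3-digit format on day 1, and none was higher, where 16.4% of all genes tested were lower. Against day 0, 5 of the 14 degradation genes were lower at day 1 (where 18.7% of all genes were) and 5 at day 3 (13.8%), with Edem1 at -0.70 and -0.78. In this list Ube2j1, a ubiquitin-conjugating enzyme, rose at day 1 (0.90, adjusted p 0.00236), by 1.17 in 1-digit and 0.38 in 3-digit libraries (difference -0.80, adjusted p 0.00116). The 15 genes of translocation and vesicle coats had 4 higher and 1 lower at day 1 (6 and 1 within 1-digit, 4 and 2 within 3-digit libraries), near the 23.3% of all genes that were higher, and 1 higher and 3 lower at day 3. Kdelr3, a receptor that returns proteins to the ER, rose by 2.18 and 1.98, and Creb3l2 fell by 1.13 and 0.90.

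**Figure D5:**
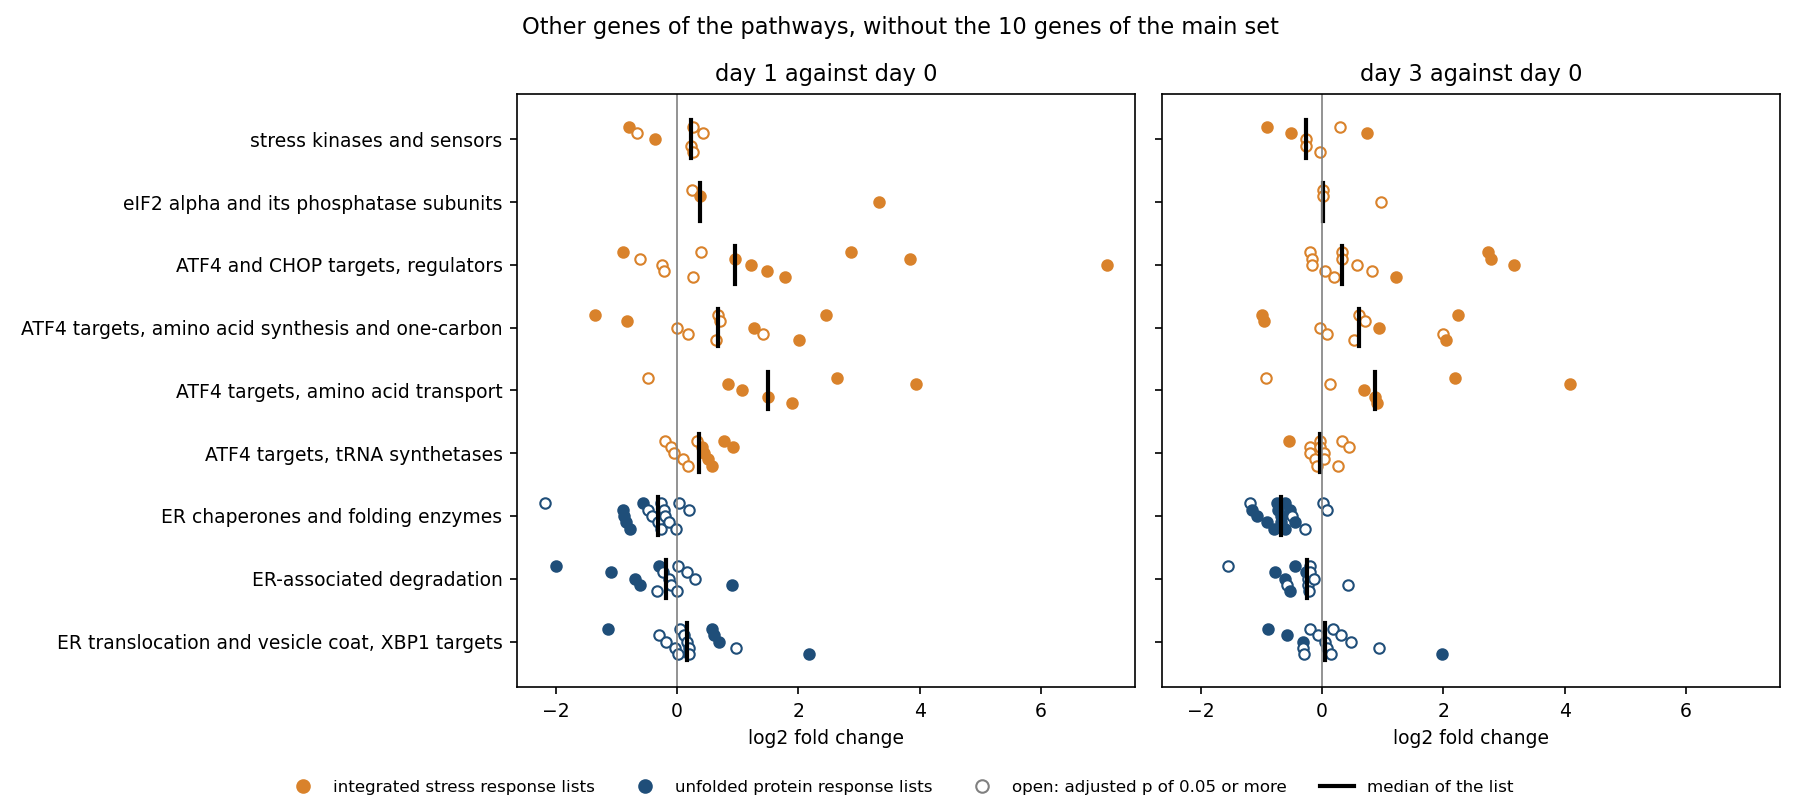
Log2 fold change against day 0 at day 1 and day 3 for the genes of each pathway list, members left out. Each point is a gene, filled points are past an adjusted p of 0.05, and a bar marks the median of the list. All filled points of amino acid transport lie above 0 at both days, and the chaperone list has no filled point above 0.

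On a scale of CPM per kilobase of exon, which allows levels to be set against each other between genes, the order on day 0 began with Hspa5 (265, range 234 to 295) and Herpud1 (212, 187 to 237), whose ranges just met. Atf4 (66.5) and Xbp1 (64.1) followed and overlapped each other, then Dnajb9 (31.2) and Sdf2l1 (25.1), which also overlapped. Ddit3 (12.8) and Asns (1.34) were each clear of their neighbours, and Chac1 (0.557) and Trib3 (0.344) overlapped at the lower end. On day 1 the order was Hspa5 (338), Atf4 (277) and Herpud1 (197), all with overlapping ranges, then Xbp1 (105), Dnajb9 (59.4), Ddit3 (42.8), Asns (10.5), Sdf2l1 (8.20), Chac1 (4.65) and Trib3 (4.54). Atf4 had thus passed Herpud1 in mean level. Ddit3 had passed Sdf2l1, with ranges clear of each other (22.7 to 68.9 against 6.68 to 10.5), and Asns had passed Sdf2l1 in mean level with overlapping ranges (6.34 to 13.3 for Asns). By day 3 Hspa5 (155.8), Herpud1 (138) and Atf4 (92.9) were again first in that order, with overlapping ranges.

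Among the members themselves, likeness was measured as the root mean square, over 14 libraries, of the difference between 2 genes in log2 CPM relative to day 0. The closest pairs were Xbp1 with Dnajb9 (0.40), Atf4 with Ddit3 (0.44) and Hspa5 with Herpud1 (0.56), and the farthest was Trib3 with Sdf2l1 (3.74). Out of 10976 other genes, those most like Atf4 were Rela (0.18), Yrdc (0.19) and Ptpn23 (0.25), against a median distance of 1.36. Those most like Chac1 were Adora2b (0.67), Srxn1 (0.68) and Nek6 (0.70), against a median of 1.90. For Hspa5 they were Zbtb11 (0.30), Hspd1 (0.31) and Ing3 (0.33), against a median of 0.94. All of these values rest on the same libraries and depths.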

How the data were processed

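Libraries of total kidney RNA (TRIzol extraction, Illumina TruSeq) were trimmed and aligned by the authors. The submitters' processing notes name Trimmomatic, STAR and mouse build mm10, with no versions. The deposited files hold raw counts of reads per gene from STAR, without normalization. The column for the strand with 98.5% to 98.7% of the stranded reads was used. Entries that name no gene took 29.0% to 38.3% of reads and were left out. Genes were kept by edgeR's filterByExpr, scaled by TMM and fitted with edgeR 4.0.16 (limma 3.58.1, R 4.3.3) in a quasi-likelihood model with 1 term per day over all 14 libraries. A second fit had 5 groups of day and number format. P-values were adjusted by Benjamini-Hochberg over 14300 genes, with a threshold of 0.05. Log2 CPM used a prior count of 2. DESeq2 1.42.0, other scalings and filters, single libraries left out and other designs were alternatives. Figures were drawn with matplotlib 3.10.9.

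The members and gene lists were chosen with earlier results of these data known. Named genes were all members, up to 2 genes per list and comparison with the largest absolute log2 fold change among those called with a mean of at least 5 CPM, 7 fixed genes (Atf3, Ppp1r15a, Eif2ak3, Ern1, Atf6, Hsp90b1 and Hyou1), and the 3 genes most like Atf4, Chac1 and Hspa5. Gene positions and exon lengths came from GENCODE vM21 on GRCm38, matched by symbol. Promoters came from RefSeq. Replicate libraries differed beyond counting noise in all 26 pairs (chi-square per degree of freedom 5.94 to 241). The script was tested on simulated counts for 14171 genes in the day 1 against day 0 design, where 172 of 199 genes changed by a log2 value of 2 were recovered, with 6 false calls.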

Additional observations from a re-analysis of the deposited data

Results flagged for a closer look

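In day 3 replicate 5, Chac1 stood far from the other 4 libraries of its day, at a log2 CPM of 3.02 or 8.01 CPM, where the others were at 1.13 to 1.63 CPM. In day 0 replicate 4, Xbp1 was low for its group, at a log2 CPM of 7.02 or 129.8 CPM, where the others were at 157 to 163 CPM. The same library had 36.5 CPM of the plasma cell gene Jchain, where the other day 0 libraries had at most 0.978 CPM, but the plasma and B cell list did not move together there. Of its other 6 genes, Cd79a, Cd79b and Pou2af1 were highest in that library at low levels (0.484 to 1.45 CPM), Mzb1 was at 1.94 CPM (1.90 to 2.78 CPM in the others), and Tnfrsf17 and Ms4a1 were at 0. All 7 urothelial markers were highest of day 0 in that library, among them Psca at 33.6 CPM (at most 4.77 CPM in the others) and Krt5 at 9.68 CPM (at most 1.38 CPM). These genes were picked after their values were seen, and their part in the Xbp1 value was not tested. These were 2 of 30 groups of libraries examined, and chance alone gives about 1 in 20, or 1.5. The difference between 3-digit and 1-digit libraries was not the same on day 3 as on day 1 for 3 genes, by a test of that change, in log2 units. It was -3.36 for Chac1, 2.11 for Hspa5 and 2.07 for Herpud1.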

How the results depend on the processing

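Over all member results and alternatives, 1680 values kept direction and call, 61 gained a call, 53 lost one and 28 changed sign. At day 1 against day 0 the settings gave 6 to 10 calls among the 10 members, and leaving out single libraries 6 to 8. At day 3 against day 0 the 3 calls became 5 with only the 2 days compared, 5 with number format as a term, 7 with 1-digit libraries only and 5 with 3-digit libraries only. At day 3 against day 1 the 3 calls became 8 with DESeq2, 1 with only the 2 days compared, 6 within either format, and 2 to 6 with single libraries left out. The 7 format calls of day 1 ranged from 4 to 7 with single libraries left out. The 1 format call of day 3 became 2 with no filter and 3 with DESeq2, and ranged from 0 to 4 with single libraries left out. Changes of sign, as log2 values, at day 1 against day 0 were Hspa5 -1.03 (3-digit only) and Herpud1 0.0895 (format as a term), 0.45 (1-digit only) and -0.36 to 0.12 (single libraries left out). At day 3 against day 0 they were Xbp1 0.0920 (library totals without TMM), 0.0927 (3-digit only) and -0.34 to 0.0757 (libraries left out) and Herpud1 0.10 (format as a term). At day 3 against day 1 they were Chac1 0.11 and Sdf2l1 -0.15 (1-digit only), Hspa5 0.35 and Herpud1 1.04 (3-digit only) and Herpud1 0.00782 (format as a term). With libraries left out, the format values ranged on day 1 from -0.27 to 0.39 for Asns and -0.15 to 0.41 for Sdf2l1, and on day 3 from -0.17 to 0.60 for Xbp1, -0.20 to 0.82 for Hspa5, -0.30 to 0.31 for Herpud1 and -0.65 to 0.18 for Dnajb9. Herpud1 on day 3 was also 0.0267 with library totals and 0.00023 with no filter. Dnajb9 in 1-digit libraries of day 3 against day 0 ranged from -0.12 to 0.72. The cause of these changes was not tested. Library totals without TMM moved the median of all genes from 0.05 to 0.19 at day 3 against day 0 and from 0.03 to 0.24 between formats on day 1. Libraries with the same replicate number on different days had correlations of -0.175 to 0.261 over 13 pairs. These values cannot settle whether the numbers pair animals, since the number format does not follow the replicate numbers across days and enters them as well. With the replicate block, 7 members were called at day 1, 3 at day 3 and 5 between day 3 and day 1. Trib3 could not be tested with a minimum of 10 counts. At day 0 Trib3 had 7 to 18 reads and Chac1 13 to 20, so their fold changes rest on few reads there.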

Other observations

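Cell markers beside the stress genes were as follows, as summed CPM over fixed marker lists. Neutrophil markers were 1.52 to 2.19 on day 0, 54.0 to 233 on day 1 and 21.0 to 511 on day 3. Macrophage markers were 136 to 229, 139 to 347 and 193 to 501 on these days. Fibroblast markers were 128 to 136, 146 to 459 and 533 to 1175. Thick limb markers were 7109 to 9831, 3428 to 6057 and 2235 to 3448, and collecting duct markers 702 to 991, 445 to 716 and 259 to 636. Endothelial markers were 379 to 488, 417 to 546 and 226 to 947. Plasma and B cell markers were 3.54 to 41.0, 2.26 to 3.27 and 0.661 to 2.75, and urothelial markers 2.47 to 80.2, 5.11 to 120 and 2.87 to 51.3. The part of these shifts in the levels of the stress genes was not tested.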
